A study of Mus musculus with 18 samples.

Results

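The genes described here encode the mouse proteasome and its helpers. They are the 50 genes, of 19935 with a probe set of their own on the array, whose symbol begins with Psm, a letter from a to g and a digit. Together 56 of the 28815 probe sets name 1 of these genes alone, and each gene was read through whichever of its probe sets had the highest mean. A further 1 probe set names Psme2 together with Psme2b and was not used. No filter on low values was applied, so all 50 genes entered every test. The symbols Psmc3ip, a meiotic recombination factor, and Psme3ip1, a partner of the activator Psme3, fit the pattern but are not proteasome subunits, and they were kept apart from the classes.

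Transcripts were measured in 18 single 2-cell embryos, 1 embryo per array. The 9 Parg(110)-/+ embryos came from 3 Parg(110)-/- fathers (PargA, PargB and PargC), and the 9 wild-type (WT) embryos came from 3 WT fathers (WT1, WT2 and WT3), with 3 embryos from each of the 6 fathers. All mothers were WT females of the 129SVE strain and mated naturally. The paper names no strain for the Parg(110)-/- fathers. Parg encodes poly(ADP-ribose) glycohydrolase, which removes poly(ADP-ribose) chains from proteins, and the Parg(110)-/+ embryos carry 1 paternal copy that lacks exons 2 and 3 beside an intact maternal copy. The comparison asks whether transcripts of the early embryo differ when the father's poly(ADP-ribose) metabolism was disturbed while his sperm formed, and an effect of the sperm cannot be told apart from one of the embryo's own genotype. Each array holds the RNA of a whole embryo, so fewer transcripts in 1 of its cells and in both cannot be told apart. An embryo is written as its father and its number, as in PargB-1. The values are log2 values after RMA (robust multichip average), so a difference of 1 is a change of 2-fold, and every difference is Parg(110)-/+ minus WT.

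The proteasome is the protease that degrades proteins tagged with ubiquitin. Its core particle is a barrel of alpha and beta rings, with the cutting sites inside on the beta subunits Psmb5, Psmb6 and Psmb7, and the regulatory particle at its ends binds, unfolds and feeds in the tagged proteins. In the early embryo this machinery clears proteins that the oocyte stored, while the embryo's own genome switches on. Immune cells exchange the cutting subunits for the interferon-induced Psmb8, Psmb9 and Psmb10, the thymic cortex uses Psmb11, and male germ cells use the alpha subunit Psma8.

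The 50 genes fell into classes by their textbook roles. The core particle had 14 members, the alpha ring genes Psma1 to Psma7 and the constitutive beta ring genes Psmb1 to Psmb7. The regulatory particle had 17 members, of which 6 are the ATPases of its base (Psmc1 to Psmc6) and 11 are non-ATPase subunits (Psmd1, Psmd2, Psmd3, Psmd4, Psmd6, Psmd7, Psmd8, Psmd11, Psmd12, Psmd13 and Psmd14). The immuno and thymo beta subunits were Psmb8 to Psmb11, and Psma8 stood alone as the testis subunit. The activators Psme1 to Psme4 and the inhibitor Psmf1 made a class of 5. The 7 assembly chaperones were Psmd5, Psmd9 and Psmd10, which assemble the regulatory particle, and Psmg1 to Psmg4, which assemble the core.

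Correlations between pairs of arrays ran from 0.924 to 0.958 over all probe sets. The median log2 value of an array ran from 6.34 to 6.49 in WT and from 6.44 to 6.53 in Parg(110)-/+ embryos. Embryo PargB-1 stood apart: its mean correlation with the other 17 arrays was 0.937, against 0.946 to 0.953 for the others. Values without it are given beside the main results it moved. Of 8 measured 2-cell and oocyte markers 8 were bright, that is at or above 6.47, the median of all probe set means, and their mean level ran from 10.81 to 11.72 in Parg(110)-/+ embryos and from 10.87 to 11.67 in WT embryos, with PargB-1 at 11.72. In PargB-1 all 8 lay above the WT mean, with a median difference of 0.44. Bright markers numbered 1 of 6 for blood and immune cells, 1 of 7 for cumulus, granulosa and oviduct cells and 3 of 6 for spermatids. In PargB-1 these lists also lay high. Markers below the WT mean numbered 0 of 6, 0 of 7 and 1 of 6 in the same order, with median differences of 0.17, 0.10 and 0.23. Limma called 0 of these 27 markers in PargB-1 and 0 between the genotypes. Parg itself measured 10.23 ± 0.48 in Parg(110)-/+ and 10.54 ± 0.41 in WT embryos (SD, n = 9 each; adjusted p = 0.571 by limma), and its probe set is not resolved to the deleted exons, so it does not check the labels.

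Promoter sequences are shown for 4 of the 5 members that were called low together in PargB-1, and for Psmb8, an immunoproteasome gene that was not called there. Psmb1 is the fifth of these members. They are the RefSeq windows of 300 bases, from 250 before to 50 after the start of the gene, on build GRCm38.p6 and written 5′ to 3′ along the gene. Psma2 lies at chr13:14612992-14613291 on the plus strand, Psma3 at chr12:70974373-70974672 on the plus strand, Psmb5 at chr14:54617946-54618245 on the minus strand, Psmd12 at chr11:107479278-107479577 on the plus strand and Psmb8 at chr17:34197945-34198244 on the plus strand. Capitals mark matches to any of the motifs searched on both strands. These were TGACNNNGC, the core of the antioxidant response element bound by Nfe2l1 and Nfe2l2, CCAAT, the box bound by NF-Y, AANNGAAA, a consensus of interferon regulatory factors, and TTCNNNGAA, the gamma-activated sequence.
Psma2: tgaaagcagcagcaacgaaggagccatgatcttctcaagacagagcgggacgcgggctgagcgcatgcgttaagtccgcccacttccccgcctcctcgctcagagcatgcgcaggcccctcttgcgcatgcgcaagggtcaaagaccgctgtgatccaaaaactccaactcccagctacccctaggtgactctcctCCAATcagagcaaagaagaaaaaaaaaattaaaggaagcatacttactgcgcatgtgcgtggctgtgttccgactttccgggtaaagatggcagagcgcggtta
Psma3: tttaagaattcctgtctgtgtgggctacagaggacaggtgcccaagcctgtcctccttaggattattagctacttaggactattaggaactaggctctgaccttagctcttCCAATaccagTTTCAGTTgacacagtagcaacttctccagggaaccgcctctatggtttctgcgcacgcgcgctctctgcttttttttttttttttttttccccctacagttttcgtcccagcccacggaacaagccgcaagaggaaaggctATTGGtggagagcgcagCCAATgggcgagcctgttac
Psmb5: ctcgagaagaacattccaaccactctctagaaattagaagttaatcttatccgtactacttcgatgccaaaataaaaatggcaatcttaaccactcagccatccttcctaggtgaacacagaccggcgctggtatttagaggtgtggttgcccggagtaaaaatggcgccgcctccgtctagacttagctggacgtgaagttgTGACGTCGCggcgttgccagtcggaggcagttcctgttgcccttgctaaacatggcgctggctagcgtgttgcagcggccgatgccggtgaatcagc
Psmd12: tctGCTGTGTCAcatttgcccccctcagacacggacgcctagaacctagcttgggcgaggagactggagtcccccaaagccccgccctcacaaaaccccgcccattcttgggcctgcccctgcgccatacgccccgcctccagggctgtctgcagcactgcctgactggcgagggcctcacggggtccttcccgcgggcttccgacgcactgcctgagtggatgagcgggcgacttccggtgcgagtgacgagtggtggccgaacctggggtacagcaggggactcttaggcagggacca
Psmb8: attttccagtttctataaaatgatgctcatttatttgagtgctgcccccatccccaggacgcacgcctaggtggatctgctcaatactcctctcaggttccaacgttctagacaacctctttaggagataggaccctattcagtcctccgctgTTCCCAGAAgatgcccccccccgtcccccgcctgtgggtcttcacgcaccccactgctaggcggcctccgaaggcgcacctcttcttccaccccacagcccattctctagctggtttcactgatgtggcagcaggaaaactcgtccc

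The motifs differed among these promoters. Psmb5 held an antioxidant response element core that begins 47 bases before the start, and Psmd12 held one 247 bases before it on the opposite strand. Psma2 held a CCAAT box 54 bases before the start, while Psma3 held 3 CCAAT boxes and 1 interferon regulatory factor match, which does not overlap them. No motif was found in all 4 promoters of the members low in PargB-1. Psmb8 held the palindromic gamma-activated sequence 97 bases before the start. Among the 46 windows of 42 members, 13% held the antioxidant response element core, 34.8% a CCAAT box, 28.3% the interferon regulatory factor consensus and 6.52% the gamma-activated sequence. The shares among all 32851 windows were 12.4%, 37.4%, 23.9% and 8.3% in the same order, so the members' windows carried these letters about as often as promoters at large. A match is a description of the letters and not a bound site.

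Between the genotypes, no proteasome gene passed the test. Limma called 0 of 50 members at an adjusted p under 0.1, where 0% of all 28815 probe sets were called, and the smallest adjusted p was 0.362 for the members and 0.354 for all probe sets. At an unadjusted p under 0.05 there were 4 members (Psmd2, Psmb11, Psma2 and Psmd1), which is 4 of 50 beside 10.5% of all probe sets. The members' median difference was -0.0208, against 0.0512 for all probe sets and 0.0367 for the bright ones. Of the members 27 were lower in Parg(110)-/+ embryos (54%), beside 32.9% of all probe sets and 41.4% of the bright ones. That count was 33 with the arrays shifted to equal medians and 19 without PargB-1. These p-values measure the spread between the embryos deposited, 3 of which share each father.

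**Figure D1:**
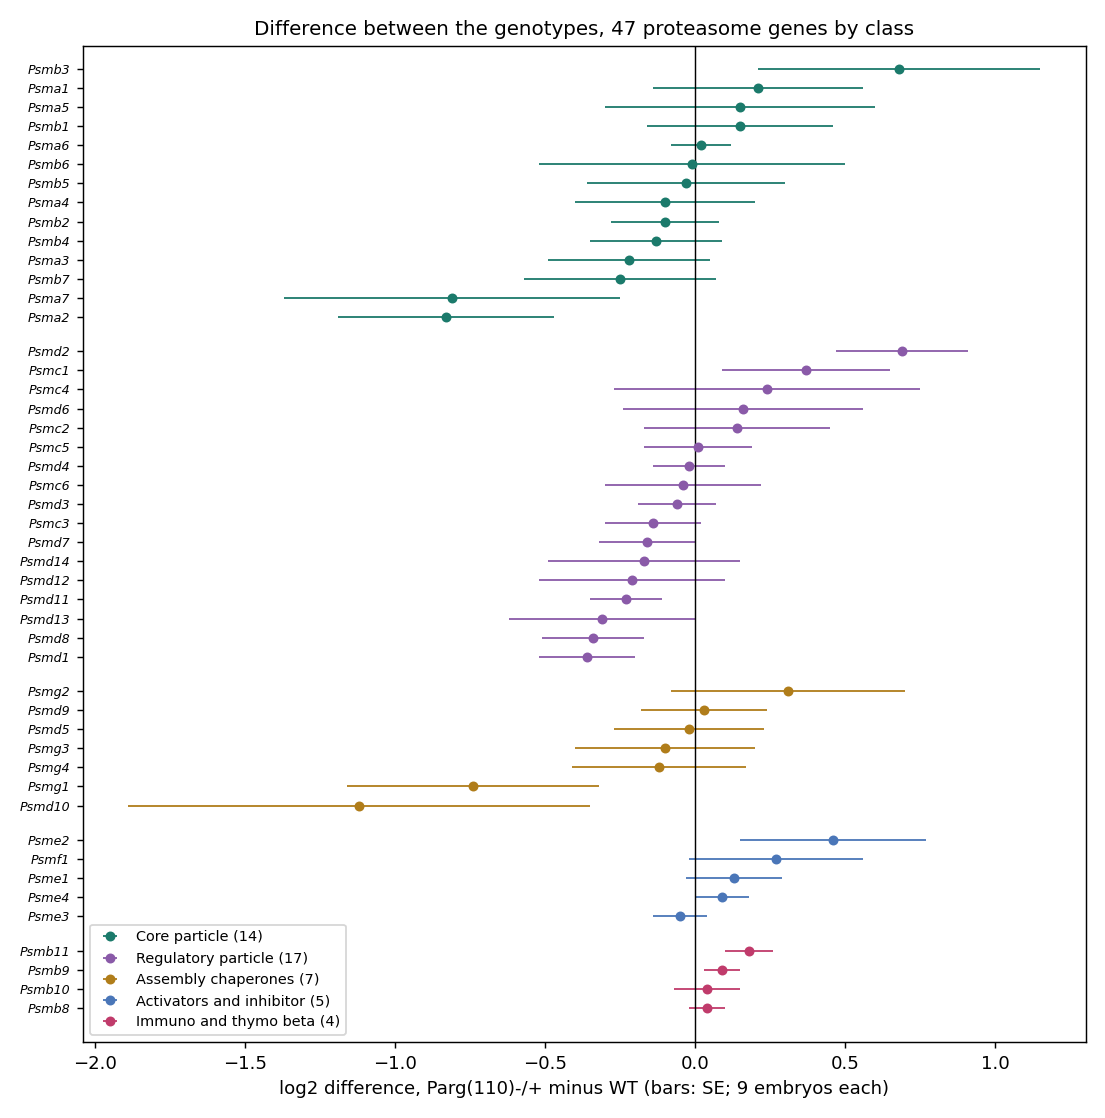
Log2 difference of Parg(110)-/+ minus WT embryos for the 47 members of the 5 classes, each row a gene and each bar the SE (9 embryos per genotype). Most bars reach across 0, and the differences run from -1.12 for Psmd10 to 0.69 for Psmd2.

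No class had a member called, and the class medians moved with single embryos. Beside 32.9% of all probe sets lower and a median of 0.0512 over all probe sets, the classes read as follows. In the core 9 of 14 members were lower, with a median difference of -0.0649, and in the regulatory particle 11 of 17, with a median of -0.0641. Both medians kept their sign under the 2 other scalings tried (arrays shifted to a common median, or quantile normalized again), but turned to 0.0521 and 0.0349 without PargB-1. That of the core also turned to 0.00433 without PargA-2 and to 0.0265 without father PargA. Within the regulatory particle, 9 of 11 non-ATPase subunits were lower (9 of 11 under both scalings), against 2 of 6 base ATPases (3 of 6 with equal array medians). Without PargB-1, 8 of the 17 regulatory particle members were lower, and its ATPases and non-ATPase subunits were not counted apart. The assembly chaperones had 5 of 7 lower (6 with equal array medians, 4 after a second quantile normalization), with a median of -0.105. The activators and the inhibitor had 1 of 5 lower under all 3 scalings, with a median of 0.131. The immuno and thymo subunits had 0 of 4 lower (2 with equal array medians, 1 after a second quantile normalization), with a median of 0.0677. When 1 embryo was left out, the medians of these 3 classes ran from -0.191 (without PargA-1) to -0.0036 (without WT1-1) for the assembly chaperones, from 0.0744 (without PargC-3) to 0.193 (without WT2-2) for the activators with the inhibitor and from 0.0436 (without PargC-1) to 0.106 (without WT3-1) for the immuno and thymo subunits. Without father WT3 the median of the chaperones was 0.0261. In the same way the lowest medians of the core and the regulatory particle were -0.142 and -0.139, both without WT3-2.

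Psmd2 had the smallest unadjusted p. This scaffold subunit of the base, where ubiquitin shuttles dock, measured between 9.23 and 10.16 with a median of 9.47 in Parg(110)-/+ embryos, against 8.24 to 9.71 with a median of 8.69 in WT embryos. All 9 Parg(110)-/+ embryos lay above the WT mean, but the groups overlapped. The difference was 0.69 ± 0.22 (SE, adjusted p = 0.362 by limma). The gene's other probe set differed by 0.12 ± 0.26 only, and the 2 probe sets correlated at 0.24 over the 18 embryos, so they did not track each other.

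Psmd1, the companion scaffold subunit of the base, ran the other way. It measured 9.25 to 9.80 with a median of 9.67 in Parg(110)-/+ embryos, against 9.25 to 10.74 with a median of 9.97 in WT embryos, a difference of -0.36 ± 0.16 (SE, adjusted p = 0.46). All 9 Parg(110)-/+ embryos lay below the WT mean, within the WT range. Psmd11, a scaffold of the lid of the regulatory particle, likewise had 9 of 9 Parg(110)-/+ embryos under the WT mean, at 10.88 to 11.51 (median 11.29) in Parg(110)-/+ and 11.05 to 12.04 (median 11.51) in WT embryos (adjusted p = 0.505). Psmd8, another lid subunit, measured 8.76 to 9.92 (median 9.74) in Parg(110)-/+ and 9.64 to 10.59 (median 9.80) in WT embryos (adjusted p = 0.49). Its low values were those of PargA-1 and PargA-2, at 8.76 and 8.91.

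Of the core, Psma2 differed most. It measured 7.30 to 10.79 (median 10.05) in Parg(110)-/+ embryos, against 9.76 to 11.24 (median 10.65) in WT embryos, and 8 of 9 Parg(110)-/+ embryos were below the WT mean. The difference of -0.83 ± 0.36 (SE, adjusted p = 0.453) was -0.519 without PargB-1, so that embryo moved it by more than 1.5 times. Psmg1, one partner of the chaperone pair that builds the alpha ring, measured 6.41 to 8.75 (median 7.63) in Parg(110)-/+ and 6.87 to 10.11 (median 8.08) in WT embryos (difference -0.74 ± 0.42, adjusted p = 0.529). Its high Parg(110)-/+ values were those of the 3 embryos of PargA, at 8.73, 8.75 and 8.74. Psme3ip1, which binds the nuclear activator Psme3, measured 8.88 to 9.77 (median 9.27) in Parg(110)-/+ and 9.13 to 9.71 (median 9.48) in WT embryos (adjusted p = 0.483). The groups overlapped in all of these genes.

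The immunoproteasome subunits were measured at low levels with a narrow range. RMA compresses values at such levels, and spermatid markers such as Prm2 (mean 7.17) were also counted as bright, so a narrow range here cannot be told apart from compression. Psmb8, which takes the place of Psmb5, measured 5.47 to 5.78 (median 5.54) in Parg(110)-/+ and 5.39 to 5.81 (median 5.49) in WT embryos. Psmb9, which takes the place of Psmb6, measured 7.33 to 7.78 (median 7.59) in Parg(110)-/+ and 7.28 to 7.62 (median 7.47) in WT embryos. Psmb10, which takes the place of Psmb7, measured 6.73 to 7.38 (median 7.04) in Parg(110)-/+ and 6.60 to 7.59 (median 7.00) in WT embryos. The range over all embryos was under 1 log2 unit for each of these 3 genes, and the groups overlapped.

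Their constitutive counterparts were measured over wider ranges. Psmb5 measured 7.65 to 11.04 (median 10.08) in Parg(110)-/+ and 9.09 to 10.78 (median 10.03) in WT embryos, and the Parg(110)-/+ range was 9.84 to 11.04 without PargB-1. Psmb6 measured 7.81 to 11.05 (median 9.50) in Parg(110)-/+ and 6.52 to 11.04 (median 9.66) in WT embryos, and its low WT value came from WT2-2. Psmb7 measured 9.23 to 12.21 (median 11.38) in Parg(110)-/+ and 10.64 to 12.14 (median 11.49) in WT embryos. Between the genotypes the differences were -0.03 ± 0.33, -0.01 ± 0.51 and -0.25 ± 0.32 for Psmb5, Psmb6 and Psmb7 (SE, adjusted p from 0.785 to 0.998), and 0.04 ± 0.06, 0.09 ± 0.06 and 0.04 ± 0.11 for Psmb8, Psmb9 and Psmb10 (adjusted p from 0.598 to 0.903). The sign turned with the scaling for Psmb6, Psmb8 and Psmb10.

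Psmb11, the cutting subunit of the thymic cortex, was at 6.62 to 7.22 (median 6.75) in Parg(110)-/+ embryos, against 6.42 to 6.80 (median 6.64) in WT embryos. All 9 Parg(110)-/+ embryos lay above the WT mean and the highest was PargA-3, but the difference of 0.18 ± 0.08 did not pass the test (SE, adjusted p = 0.445). Psma8, the testis alternative to Psma7, was dim, at 4.80 to 5.18 (median 5.01) in Parg(110)-/+ and 4.77 to 5.33 (median 4.91) in WT embryos (difference 0.04 ± 0.07, adjusted p = 0.823), and its sign turned with both other scalings. Psma7 itself measured 5.71 to 11.23 (median 9.38) in Parg(110)-/+ embryos, against 9.30 to 10.96 (median 10.26) in WT embryos. Its difference of -0.81 ± 0.56 (adjusted p = 0.596) was -0.343 without PargC-2, whose value of 5.71 was the lowest of the 18.

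The spread between embryos is given here by class. Over the 18 embryos the median SD of log2 values was 0.715 in the core, 0.567 in the regulatory particle, 0.645 among assembly chaperones, 0.346 among activators with the inhibitor and 0.159 among the immuno and thymo subunits, beside 0.324 for all bright probe sets. Without PargB-1 these medians were 0.597, 0.408, 0.639, 0.355 and 0.16 in the same order, beside 0.312 for all bright probe sets. At like brightness, over all 18 embryos, the members' spread was still the larger. Among probe sets with means of 8 to 10 the median SD was 0.679 for the 17 members there and 0.526 for all, and at 10 and over it was 0.428 for the 18 members and 0.29 for all. Between the overall median and 8, where Psmb9, Psmb10 and Psmb11 lie, it was 0.505 for the 10 members and 0.234 for all, and the SDs of these 3 genes were 0.14, 0.24 and 0.18. The members' medians were thus above those of all probe sets in each of these ranges.

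**Figure D2:**
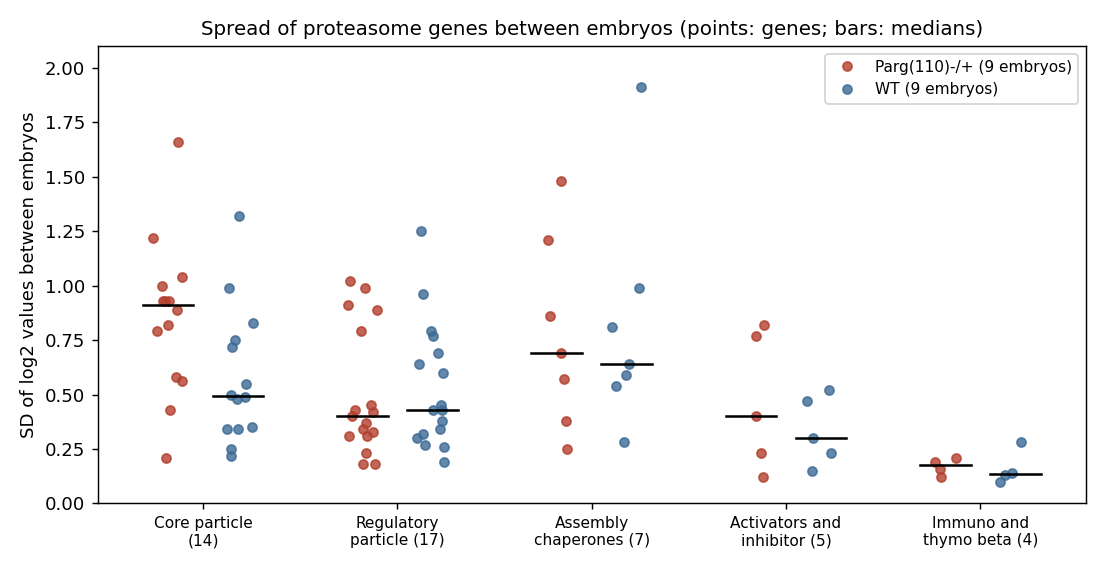
SD of log2 values between embryos for each gene (points) with the class median (bars), Parg(110)-/+ left of WT in each class, 9 embryos per genotype. The core medians are 0.906 in Parg(110)-/+ and 0.496 in WT embryos, and the immuno and thymo medians 0.172 and 0.137.

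In the core the SD was larger among Parg(110)-/+ than among WT embryos for 11 of 14 members, with medians of 0.906 and 0.496. This rested on 1 embryo: without PargB-1 it was larger for 8 of 14, with medians of 0.534 in Parg(110)-/+ and 0.496 in WT embryos. In the regulatory particle the SD was larger in Parg(110)-/+ embryos for 8 of 17 members, with medians of 0.399 in Parg(110)-/+ and 0.425 in WT embryos.

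The most variable member was Psmd10, also known as gankyrin, a chaperone of the base. It measured 5.54 to 10.15 (median 6.91) in Parg(110)-/+ embryos, against 5.52 to 11.29 (median 8.27) in WT embryos, with an SD of 1.76 over all 18 that exceeded that of 99.4% of probe sets. Values near the dim end and near the bright end occurred in both genotypes, and embryos of 1 father lay far apart: those of WT1 measured 11.29, 5.52 and 6.09. The difference between the genotypes was -1.12 ± 0.77 (SE, adjusted p = 0.594). Psmc4, an ATPase of the base, had an SD of 1.11, at 7.12 to 9.99 (median 8.24) in Parg(110)-/+ and 6.77 to 10.11 (median 7.88) in WT embryos (difference 0.24 ± 0.51, adjusted p = 0.878), and its difference ran from 0.0381 without PargC-1 to 0.485 without WT1-1. With Psma7 (SD 1.27) and Psmb6 (SD 1.11) these were the 4 members with the largest spread.

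At the other end, the bright members with the least spread were Psmb9 (SD 0.14), Psmb11 (0.18), Psme4 (0.18) and Psme3 (0.19). Psme4, an activator that acts on acetylated histones in male germ cells, measured 11.32 to 11.66 (median 11.50) in Parg(110)-/+ and 10.85 to 11.61 (median 11.46) in WT embryos (difference 0.09 ± 0.09, adjusted p = 0.682). Psme3, the nuclear activator, measured 11.35 to 11.96 (median 11.67) in Parg(110)-/+ and 11.51 to 11.91 (median 11.76) in WT embryos (difference -0.05 ± 0.09, adjusted p = 0.865). These 2 activators were thus even across both genotypes, and only WT3-1, at 10.85 for Psme4, was set off from the rest.

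Some of the values were large steps in single embryos. Among the 45 bright members, 14 of 810 values (1.73%) lay more than 2 log2 units, or 4-fold, below the gene's median, in 10 members, against 0.545% of the values of all bright probe sets. Without PargB-1 the shares were 1.05% for bright members and 0.489% for bright probe sets. Steps of that size upward were 8 of 810 (0.988%) among bright members and 0.8% among bright probe sets. Psmd10 alone had 4 embryos low and 4 high by this measure.

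Each Parg(110)-/+ embryo was also set against the 9 WT embryos, which these 9 comparisons share. Percentages of all probe sets given here count calls by adjusted p. The share of all probe sets at an unadjusted p under 0.05 was not counted for single embryos. In PargB-1, 5 of 50 members were called, beside 2.17% of all probe sets, and all 5 were lower, beside 0.972% of all probe sets called lower. Among bright probe sets the shares called lower were 11.1% for members (5 of 45) and 1.94% for all. The 5 genes were Psma2 and Psma3 of the alpha ring, Psmb1 and Psmb5 of the beta ring and Psmd12 of the lid. Of the other 8 embryos, 1 member was called in PargB-3 (Psmg2, higher), where the background was 0.826%, and 1 in PargC-2 (Psma7, lower), where it was 0.625%. The remaining 6 embryos had 0 of 50 members called, with between 2 and 7 members at an unadjusted p under 0.05, beside 0.628% of all probe sets called in PargA-1, 0.635% in PargA-2, 0.604% in PargA-3, 0.691% in PargB-2, 0.76% in PargC-1 and 0.843% in PargC-3.

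**Figure D3:**
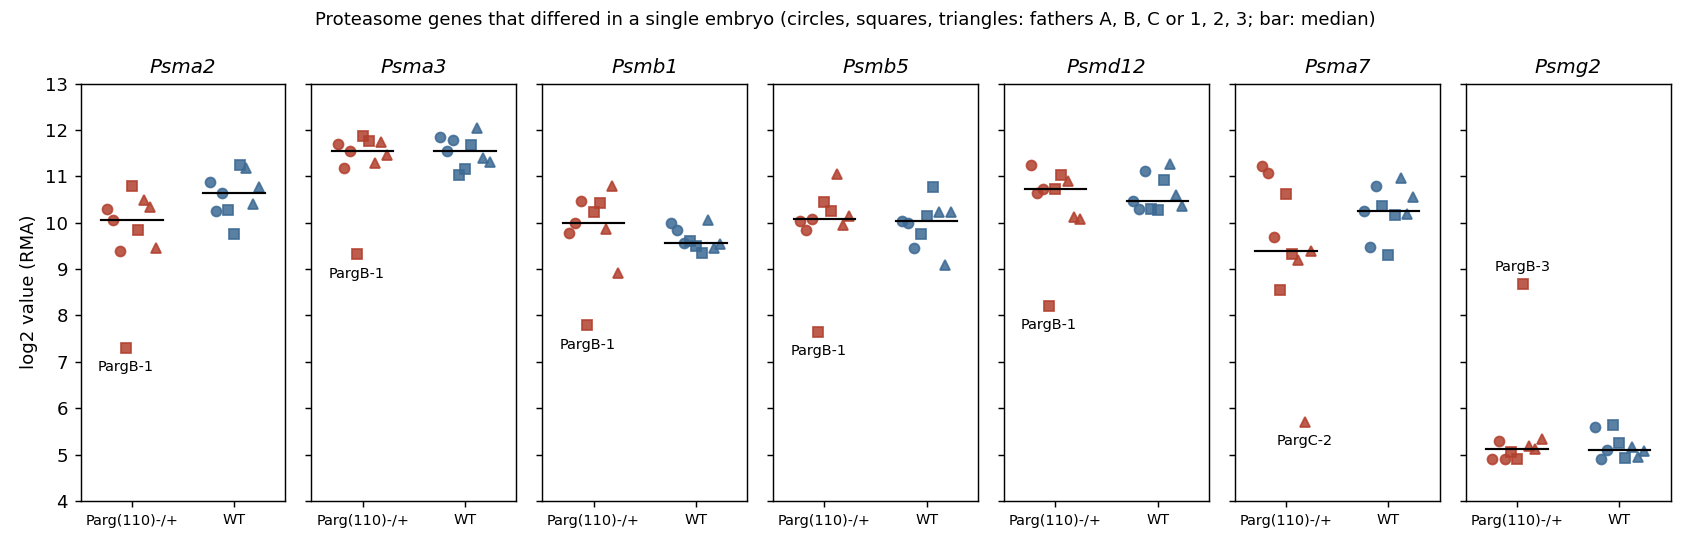
Log2 values of the 7 genes called in a single embryo, Parg(110)-/+ embryos left of WT embryos, with the shape of a point giving the father and the bar the median of the genotype. The embryo called is named beside its point and lies outside the other 17 in every panel.

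Psma2 measured 7.30 in PargB-1, against 9.76 to 11.24 in the 9 WT embryos, a difference of -3.30 ± 0.47 (SE, adjusted p = 0.00713 by limma). The other 8 Parg(110)-/+ embryos lay at 9.39 to 10.79, 2 of them below the lowest WT embryo. Psma3 measured 9.32 in PargB-1, against 11.02 to 12.05 in WT embryos (difference -2.22 ± 0.33, adjusted p = 0.0109). The gene's other probe sets gave -2.35 and -2.32 in PargB-1 (adjusted p = 0.0145 and 0.0224) and correlated with the first at 1.00 and 0.99. Psma5, also of the alpha ring, measured 7.47 in PargB-1, against 8.00 to 11.29 in WT embryos, and was not called (difference -2.37, adjusted p = 0.408). Its second probe set was called (-2.96, adjusted p = 0.0379).

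In the beta ring Psmb1, a structural subunit, measured 7.79 in PargB-1, against 9.34 to 10.06 in WT embryos (difference -1.87 ± 0.25, adjusted p = 0.0056). Psmb5, which carries the chymotrypsin-like cutting site, measured 7.65 in PargB-1, against 9.09 to 10.78 in WT embryos (difference -2.32 ± 0.48, adjusted p = 0.0517). Psmd12, a lid scaffold, measured 8.21 in PargB-1, against 10.28 to 11.26 in WT embryos (difference -2.41 ± 0.38, adjusted p = 0.013). In all 5 genes PargB-1 lay below each of the other 17 embryos, and the 2 other embryos of PargB lay between 9.85 and 11.88.

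Called members included, most core and regulatory particle genes were below the WT mean in PargB-1. In that embryo 41.2% of all and 46.4% of bright probe sets were below the WT mean, and 8.53% of all and 13.6% of bright probe sets lay below all 9 WT embryos. In the core 13 of 14 members were below the WT mean in PargB-1 with a median difference of -0.95, and 8 of 14 lay below all 9 WT embryos. Of the 10 core members not called, 9 were below the WT mean with a median of -0.51, and 4 lay below all 9 WT embryos. In the regulatory particle 15 of 17 were below the WT mean with a median of -0.29, and 5 lay below all WT embryos. Among assembly chaperones 5 of 7 were below (median -0.27). The immuno and thymo subunits were below in 1 of 4 (median 0.14) and the activators with the inhibitor in 0 of 5 (median 0.20). The exception in the core was Psmb3, a structural beta subunit, at 9.80 in PargB-1, but its second probe set was not high there (difference -0.24). Psmf1, the inhibitor, measured 9.25 in PargB-1, against 6.87 to 8.47 in WT embryos, and was not called (difference 1.83, adjusted p = 0.119). After a second quantile normalization it was called (1.92, adjusted p = 0.0752).

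**Figure D4:**
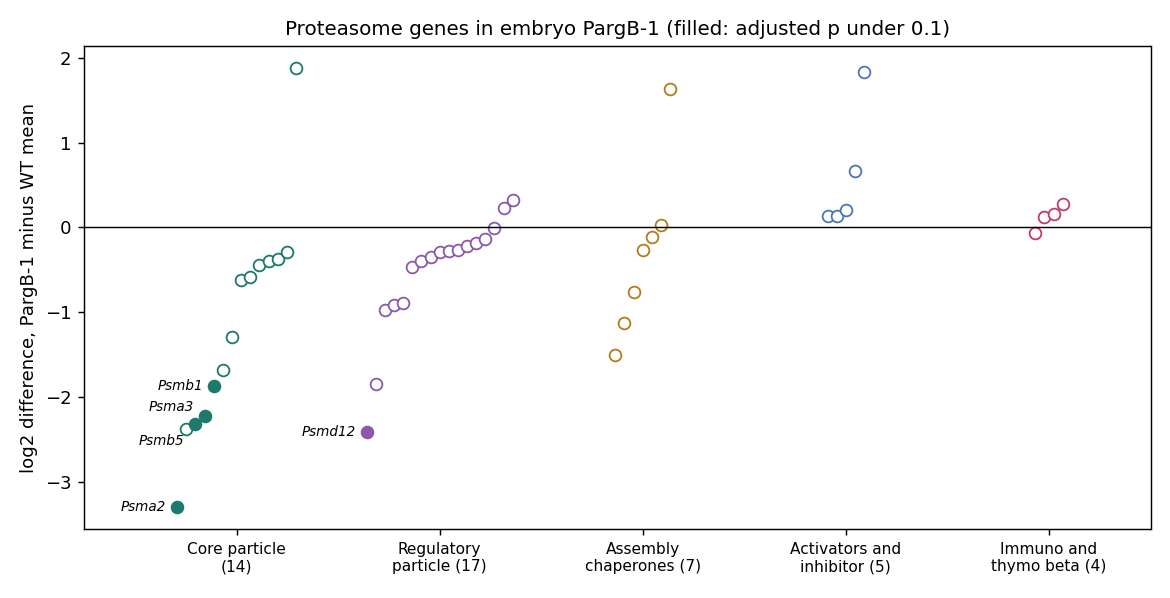
Log2 difference of embryo PargB-1 from the mean of 9 WT embryos for 47 members in 5 classes, each point a gene, filled where the adjusted p was under 0.1. The core lies low with a median of -0.95, the regulatory particle at -0.29, and the activators and immune subunits at or above 0.14.

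PargB-1 departed from WT embryos in many other genes as well. It had 625 probe sets called, 345 of them higher, and 215 bright probe sets more than 4-fold below their median, against 31 to 127 in the other 17 embryos. Nearly all cell type markers, and not only those of the oocyte and 2-cell embryo, lay above the WT mean in it. The part of these array-wide departures in the proteasome result was not tested. Of 29 proteasome partners outside the 50 genes, 19 were measured on probe sets of their own. The 3 lowest against the WT mean in PargB-1 were Uchl5, a deubiquitinase of the regulatory particle (-2.17 ± 0.42), Sem1, its smallest subunit (-2.47 ± 0.57), and Zfand2a, a stress-induced proteasome binder (-1.02 ± 0.23). The highest was Ubqln2 (1.49). Nfe2l1, the transcription factor known to raise proteasome genes when the proteasome is impaired, differed by -0.02 in PargB-1 (adjusted p = 0.996), and the core chaperone Pomp by 0.31 (adjusted p = 0.965). In all, 10 of the 19 partners were below the WT mean in PargB-1, with a median of -0.02.

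Psma7, an alpha ring gene, measured 5.71 in PargC-2, against 9.30 to 10.96 in WT embryos and 8.54 to 11.23 in the other 8 Parg(110)-/+ embryos (difference -4.52 ± 0.53, adjusted p = 0.00429). No other core gene was called in this embryo, where 5 of 14 core members lay below their mean over all embryos. Psmg2, the partner of Psmg1 in building the alpha ring, measured 8.68 in PargB-3, against 4.91 to 5.64 in WT embryos and 4.91 to 5.34 in the other 8 Parg(110)-/+ embryos (difference 3.50 ± 0.27, adjusted p = 0.000265). It was thus dim in 17 embryos, where values are compressed, and bright in 1, while Psmg1 in that embryo was 7.63. The cumulus marker Ptx3 was also called in PargB-3, at 6.06 (difference 0.61 ± 0.10, adjusted p = 0.0423), and its part was not tested. Psma7 and Psmg2 are read by 1 probe set each.

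Transcripts of the core and regulatory particle ran low in a WT embryo too. In WT2-2, 11 of 14 core and 16 of 17 regulatory particle members lay below their mean over all 18 embryos, and the mean deviation was -0.49 in the core and -0.51 in the regulatory particle. In PargB-1 the counts were 13 and 15, with mean deviations of -1.09 and -0.52. WT3-1 was the opposite, with 0 of 14 core members below and mean deviations of 0.59 and 0.39. The mean deviation of all bright probe sets was -0.01 in WT2-2, -0.04 in PargB-1 and -0.01 in WT3-1. Quantile normalization holds it near 0, and the share of all probe sets below their mean was not counted. Over the genotypes the mean deviation of the core ran from -1.09 to 0.50 in Parg(110)-/+ embryos (from -0.29 without PargB-1) and from -0.49 to 0.59 in WT embryos, and that of the regulatory particle from -0.52 to 0.28 in Parg(110)-/+ embryos (from -0.2 without PargB-1) and from -0.51 to 0.39 in WT embryos.

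**Figure D5:**
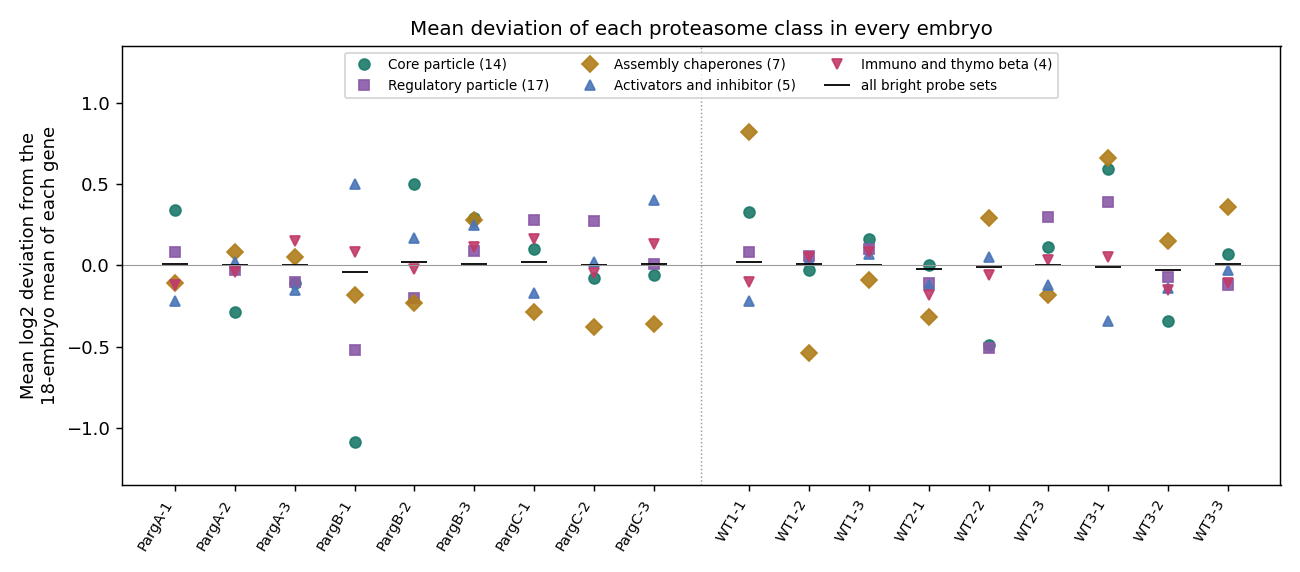
Mean log2 deviation of each class from its genes' means over 18 embryos, Parg(110)-/+ embryos left and WT embryos right of the dotted line, with all bright probe sets, which quantile normalization holds near 0, as black dashes. PargB-1 has the lowest core value (-1.09), and core and regulatory particle are low together in WT2-2 (-0.49 and -0.51).

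Across embryos, members of the core were weakly correlated with each other. The median Pearson r over pairs of genes and 18 embryos was 0.25 within the core, 0.13 within the regulatory particle (16 bright members) and 0.163 between the core and the regulatory particle, beside 0.0113 for all pairs of 11318 bright probe sets of 1 gene. These probe sets were not matched to the core in brightness: their median mean was 7.75, against 10.14 in the core. The part of brightness in the contrast was not tested. Within the core the median r was 0.297 in Parg(110)-/+ and 0.296 in WT embryos, and 0.176 without PargB-1. The highest pair was Psma3 with Psmd12 at 0.87, which was 0.50 without PargB-1. Psmb2 with Psmd7, a lid subunit that pairs with the deubiquitinase Psmd14, stood at 0.81 and was 0.79 without PargB-1. Among the lowest pairs, Psmf1 stood at -0.80 with Psmd12 (-0.60 without PargB-1) and at -0.66 with Psma2 (-0.28 without PargB-1). Psmb11 stood at -0.66 with Psma2 (-0.79 without PargB-1) and at -0.64 with Psmc2 (-0.63 without PargB-1). The pairs named here are extremes of all pairs of bright members. The points share arrays, and 3 embryos share each father, so these values are descriptions.

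No proteasome gene was called in a family set against WT embryos, or between the fathers of a genotype. Against the 9 WT embryos, which the 3 families share as their control, 0 of 50 members were called in the offspring of PargA (0% of all probe sets, by limma), of PargB (0.0139%) and of PargC (0.0104%), with 4, 5 and 6 members at an unadjusted p under 0.05 in that order. The smallest adjusted p was that of Psme2, a subunit of the interferon-inducible activator, which measured 8.32, 9.27 and 9.47 in the embryos of PargB, against 6.55 to 8.35 in WT embryos (difference 1.36 ± 0.33, adjusted p = 0.189). Its 2 highest values belonged to this family, but PargB-1 lay within the WT range. Psme2 has a near copy, Psme2b, whose signal may not be separate. The median difference of the members in the PargB family was -0.0912, beside 0.0714 for all and 0.0562 for bright probe sets. Without PargB-1 the members' median was 0.0607, and that of all probe sets was not taken. Between the 3 fathers of a genotype, limma's F test called 0 of 50 members among Parg(110)-/+ embryos (0.00347% of all probe sets). Among WT embryos it called 0 of 50 (0%). Members at an unadjusted p under 0.05 numbered 7 and 2. The smallest adjusted p of the F test was 0.824, for Psmg1 among Parg(110)-/+ embryos. For families and fathers the percentages count calls by adjusted p. The share of all probe sets at an unadjusted p under 0.05 was not counted for them.

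Genes of the pathway outside the 50 followed the same picture between the genotypes. Of the 19 measured partners 0 were called and 10 were lower in Parg(110)-/+ embryos, with a median difference of -0.0018, and Vcp, the segregase that extracts ubiquitin-tagged proteins, had the smallest p among them (-0.47 ± 0.19, adjusted p = 0.428). Vcp was called in 1 embryo, PargB-2, at 8.36 (difference -1.40 ± 0.27, adjusted p = 0.0885). Of 16 antigen processing and interferon response genes 10 were measured and 0 were called, with 4 lower and a median of 0.0448. Tap2, a peptide transporter encoded beside Psmb8 and Psmb9, differed by 0.19 ± 0.07 (adjusted p = 0.38). In no single embryo was a gene of that list called.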

How the data were processed

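Single 2-cell embryos were profiled on Affymetrix arrays after their RNA was amplified (NuGen WT-Ovation One-Direct). The authors deposited log2 values made with RMA in Partek, that is after background correction, quantile normalization and summarization of probes. Tool versions are not given in the sources used here. Quantile normalization can reduce a change that most genes share, and RMA compresses dim values. Precision is limited by how many embryos and fathers were used.

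Linear models were fitted to the 28815 probe sets with limma 3.58.1 and R 4.3.3 by lmFit and eBayes. Tests were two-sided. P-values were adjusted by the method of Benjamini and Hochberg across the whole table, and genes under 0.1 were called, as in the study's methods. Genotypes were compared as 9 against 9 embryos, families as 3 embryos of a father against 9 WT embryos, and single Parg(110)-/+ embryos against 9 WT embryos with the spread taken from WT embryos (8 residual degrees of freedom). Fits were tested on simulated data. Levels of different probe sets were not compared. Gene names came from the platform annotation.

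Every member was named, and values were given for the 8 with the smallest p between genotypes, the 4 with the largest and the 4 bright ones with the smallest spread, the immuno, thymo and testis subunits with their counterparts, and all called members. Members and lists were chosen with earlier results of these data known. Alternatives were other scalings, the father as a random block, means per father, the methods' one-way test, a brightness filter, the mean over a gene's probe sets, and leaving out embryos and fathers. Values without PargB-1 in the PargB family, the spread, the steps and the class counts, and class counts by scaling, were chosen after seeing the data.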

Additional observations from a re-analysis of the deposited data

Results flagged for a closer look

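Among 100 sets of 9 embryos (50 genes in each genotype), 18 held a highest or lowest embryo whose gap to its neighbour took a share of the whole range above Dixon's critical value, 11 in Parg(110)-/+ and 7 in WT embryos. For independent, normally distributed values about 1 in 20 such sets is flagged. The share over all probe sets was not taken, so the 18 are not read as a result about these genes. Of the 18 values 6 were the lowest of PargB-1, namely Psma2 at 7.30, Psma3 at 9.32, Psma5 at 7.47, Psmb5 at 7.65, the base ATPase Psmc5 at 10.26 and Psmd12 at 8.21. Other low values in Parg(110)-/+ embryos were those of Psma7 in PargC-2 (5.71) and Psmd11 in PargA-3 (10.88). High values in Parg(110)-/+ embryos were those of Psmb11 in PargA-3 (7.22), Psme1, a subunit of the interferon-inducible activator, in PargC-3 (8.62), and Psmg2 in PargB-3 (8.68).

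In WT embryos, low values stood apart for Psmb6 (6.52) and the deubiquitinase Psmd14 (8.86), both in WT2-2, and for Psme4 in WT3-1 (10.85). High values stood apart for Psma8 in WT1-3 (5.33), the base ATPase Psmc3 in WT3-1 (8.90), Psmd8 in WT1-2 (10.59) and the core chaperone Psmg4 in WT3-2 (8.42). Of these, Psma2, Psma3, Psmb5, Psmd12, Psma7 and Psmg2 were also called in their embryo by limma. The causes were not tested.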

How the results depend on the processing

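Members called between the genotypes stayed at 0 under every alternative run. The number of probe sets called in all was 0, but 3 without father WT1, and 0 to 1 when 1 embryo was left out (1 without WT1-3 or without PargB-1). Members at an unadjusted p under 0.05 numbered 4, but 6 with equal array medians, 5 with the father as a random block, 5 without father PargA, 2 after a second quantile normalization, 2 without father WT3, and 1 to 5 when 1 embryo was left out. The difference of Psmb6 changed sign to 0.0118 after a second quantile normalization, 0.232 without father WT1, 0.0352 without WT3, 0.0399 without PargA and 0.0266 without PargB, and ran from -0.388 without WT2-2 to 0.213 without PargA-2. That of Psmc4 changed to -0.0116 without father WT3 and -0.117 without PargC, and ran from 0.0381 without PargC-1 to 0.485 without WT1-1. In single embryos, PargC-2 had 2 members called after a second quantile normalization (Psmb1 added), and PargA-3 had 1, Psmb11, with the spread pooled over fathers. The 5 members called in PargB-1 were called under both other scalings and the pooled spread, and a second quantile normalization made them 6, with Psmf1 added as higher. The causes were not tested. No paired analysis was possible because the replicate numbers name fathers and embryos within a genotype and are not shared between genotypes.

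Each single embryo is 1 sample, so a call in it compares that embryo with WT embryos and carries no replicate. Dim genes (5 of 50 members) are compressed towards background, which limits what can be seen for Psma8, Psmb8, Psmd13, Psmg2 and Psmg4. Amplification from 1 embryo adds spread that cannot be told apart from that of the embryo itself.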
